A study of Mus musculus with 6 samples.

Results

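The platelet receptor for von Willebrand factor, the GPIb-IX-V complex, was examined through its 4 subunit genes, Gp1ba, Gp1bb, Gp9 and Gp5, together with Vwf, the gene of its ligand. These 5 genes were taken by name from the 53801 genes of the count table, and all 5 were among the 13631 genes with enough reads to be tested. RNA of mouse fetal liver cells from E12.5-13.5 embryos was sequenced in 6 libraries. In 3 of them a doxycycline-inducible Arid3a-FLAG construct was present, and in the other 3 an inducible construct that the labels name LUC. Everything else in the labels was shared by both groups. All cells came from B6J.129(Cg)-Gt(ROSA)26Sortm1.1 mice of the Fezh/J line, whose allele, CAG-cas9*,-EGFP, holds Cas9 and EGFP under the CAG promoter at the Rosa26 locus. All cells carried sgGata1, a guide against Gata1, and miR-125b, delivered by lentivirus, and all received doxycycline at 1 μg/mL for 48 h. The sample titles call them Gata1s cells, so LUC cells are no wild-type control. Nothing in the labels tells whether replicates were separate animals or cultures, and p-values therefore rest on the spread among these 6 samples, part or all of which may be technical.

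Platelets use GPIb-IX-V to catch von Willebrand factor that is bound to an injured vessel wall, the first contact that slows them under fast flow. Gp1ba encodes the long chain that holds the binding site for von Willebrand factor. Gp1bb encodes the short chain joined to it by disulfide bonds, Gp9 a small chain needed to bring the complex to the cell surface, and Gp5 a more loosely held chain that thrombin can cleave. In humans, loss of the genes for the alpha, beta or IX chain causes the giant-platelet bleeding disorder Bernard-Soulier syndrome. Von Willebrand factor itself is made by megakaryocytes, which store it in alpha granules, and by endothelial cells. The subunit genes are switched on as megakaryocytes mature, and GATA and ETS family factors are known to bind at their promoters.

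The promoter windows below are shown because 3 of the subunit genes share the GATA core in them. They are the 250 bases before the RefSeq start of each gene on GRCm38.p6, 5′ to 3′ on the strand of the gene, at chr11:70638872-70639121 (plus strand) for Gp1ba, chr6:87777820-87778069 (plus strand) for Gp9 and chr16:30310782-30311031 (minus strand) for Gp5. Capitals mark GATAA, the core recognised by GATA factors, on either strand.
Gp1ba: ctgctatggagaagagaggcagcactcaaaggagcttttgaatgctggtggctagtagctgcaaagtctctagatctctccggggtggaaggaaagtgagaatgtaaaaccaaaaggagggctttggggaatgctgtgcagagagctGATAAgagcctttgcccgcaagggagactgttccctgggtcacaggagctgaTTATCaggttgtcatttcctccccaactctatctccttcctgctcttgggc
Gp9: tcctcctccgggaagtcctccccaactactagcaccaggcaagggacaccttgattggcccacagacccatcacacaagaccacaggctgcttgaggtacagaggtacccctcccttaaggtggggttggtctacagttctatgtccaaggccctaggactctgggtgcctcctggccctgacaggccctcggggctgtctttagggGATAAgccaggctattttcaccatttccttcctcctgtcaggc
Gp5: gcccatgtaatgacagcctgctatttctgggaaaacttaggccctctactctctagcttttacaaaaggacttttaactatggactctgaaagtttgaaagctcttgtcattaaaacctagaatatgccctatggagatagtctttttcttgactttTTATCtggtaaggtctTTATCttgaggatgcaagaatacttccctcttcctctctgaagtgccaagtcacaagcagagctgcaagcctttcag
The core stood 2 times in the Gp1ba window, 1 time in that of Gp9 and 2 times in that of Gp5. It was not found in the window of Gp1bb, which lies in an exon of Sept5 and is not printed. Of 32851 promoter windows of this length, 22.6% held GATAA at least 1 time and 4.28% at least 2 times. The ETS core GGAAG, also searched on both strands, stood 2 times in each of the 4 windows, and of all windows 64.1% held it at least 1 time and 29.4% at least 2 times. ATTAA, an AT-rich core of the kind ARID proteins prefer, was found 1 time in the Gp5 window and in none of the other 3, against 24.9% of all windows. None of the matches of these motifs overlapped another. A match describes the letters and is no evidence of binding.

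The libraries held between 15728150 and 18249053 counts on genes. The construct's own entry had between 2758 and 3348 counts in the Arid3a-FLAG libraries and 0 in every LUC library. The Arid3a gene itself was at 12.6 to 13.6 CPM in the Arid3a-FLAG libraries, against 9.22 to 15.9 CPM in the LUC libraries, and how reads common to gene and construct were assigned is not given. CPM here is the count scaled to a common library total, after TMM scaling of the totals. The groups separated on the first principal component (45.3% of the variance), and LUC library 2 lay apart on the second (24.0%). Megakaryocyte markers were present: Itga2b reached at least 1608 CPM and Pf4 at least 2971 CPM in every library, whereas the late platelet genes Tubb1 and Treml1 stayed at or below 2.44 and 3.91 CPM. The summed level of 8 megakaryocyte markers ran from 6506 to 7028 CPM with Arid3a-FLAG and from 6428 to 8093 CPM with LUC. These ranges overlapped, but Pf4 and Itga2b made up most of the sum. Within it, the log2 fold change of Arid3a-FLAG over LUC was 0.97 for Itgb3 and -1.01 for Ppbp. Overlap of the sums therefore does not show that single markers, or the share of megakaryocytes, stayed the same.

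With Arid3a-FLAG, 3 of the 4 receptor subunits rose: Gp1bb 1.76-fold, Gp9 1.61-fold and Gp5 1.54-fold. Gp1ba, the ligand-binding chain, had a fold of 1.27 that did not pass the adjusted threshold, although its 3 Arid3a-FLAG values all lay above its 3 LUC values. Vwf had a fold of 0.879 with overlapping groups. Of all tested genes, 3.43% rose at an adjusted p under 0.05 in edgeR's quasi-likelihood test and 16.6% had all Arid3a-FLAG libraries above all LUC libraries, against 3 and 4 of these 5 genes. None of the 5 fell, against 3.87% of all tested genes, and 7.29% changed in either direction. The log2 fold change had a median of 0.63 over the 5 genes and of -0.03 over all tested genes. These are bulk samples, so a change in the number of cells that express a gene cannot be told apart from a change of RNA per cell. Markers of other blood cells moved with the groups: 6 mast cell and basophil markers summed to 753.0 to 1286 CPM with Arid3a-FLAG and 1704 to 1982 CPM with LUC, and 7 erythroid markers, of which Slc4a1 had 0 counts throughout, to 183.2 to 243.5 CPM with Arid3a-FLAG and 112.5 to 139.2 CPM with LUC. Their part in the receptor result was not tested.

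**Figure D1:**
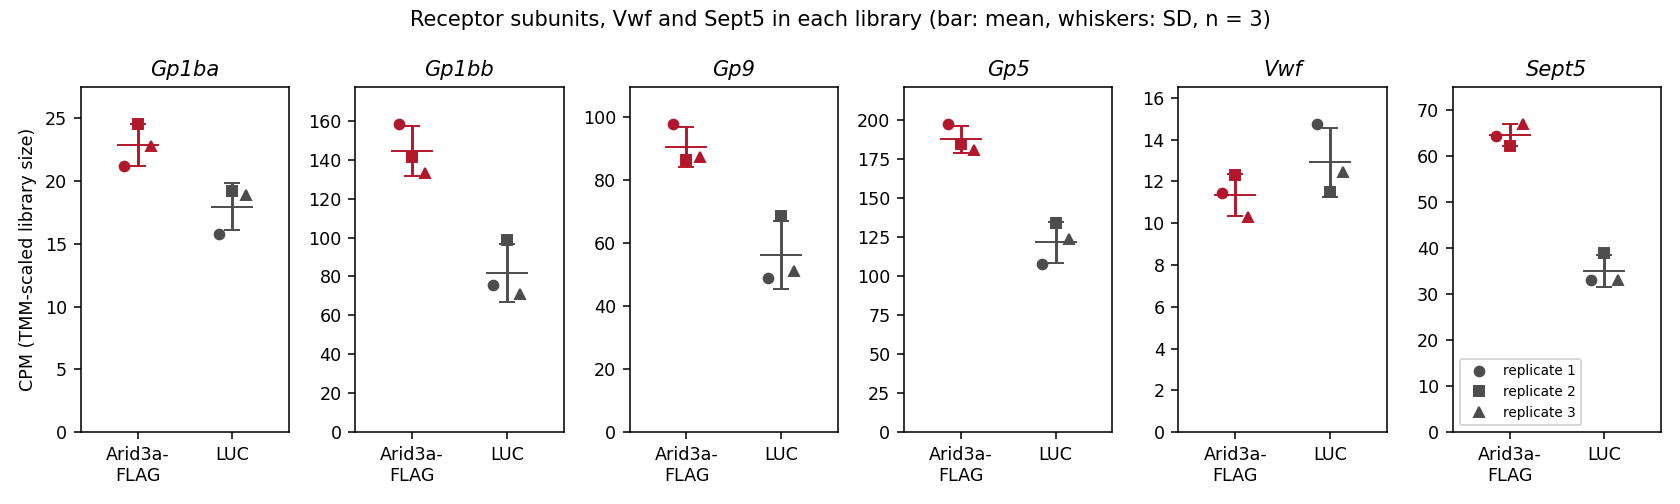
Levels of the 4 subunit genes, Vwf and Sept5 in each library, in CPM (vertical axis, from 0), with Arid3a-FLAG in red and LUC in grey; marker shapes stand for replicate numbers, bars for means and whiskers for the SD over 3 libraries. The groups are apart for the 4 subunit genes and for Sept5 and overlap for Vwf, and LUC library 2 is the highest LUC library for each subunit.

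Gp1ba (ENSMUSG00000050675, chromosome 11, 70639122 to 70642036, plus strand, GRCm38) was at 21.2, 24.5 and 22.8 CPM in Arid3a-FLAG libraries 1, 2 and 3, against 15.8, 19.2 and 18.9 CPM in LUC libraries 1, 2 and 3. The lowest Arid3a-FLAG library was thus above the highest LUC library, by a gap smaller than the range within either group. The means were 22.8 ± 1.67 CPM with Arid3a-FLAG and 17.9 ± 1.88 CPM with LUC (SD, n = 3 each), and the log2 fold change was 0.35 (SE 0.12, 95% interval 0.08 to 0.62, edgeR adjusted p = 0.110). Among the 6 fits that each omitted a library, it passed only without LUC library 2 (log2 fold change 0.41, edgeR adjusted p = 0.038). In that fit 1191 of all genes were called higher, against 467 with all libraries. With between 273 and 422 counts per library, Gp1ba was the least counted subunit.

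Gp1bb (ENSMUSG00000050761, chromosome 16, 18620317 to 18622403, minus strand) was at 158.2, 141.6 and 133.2 CPM in the Arid3a-FLAG libraries, against 75.9, 98.7 and 70.9 CPM in the LUC libraries. The groups were well apart, with LUC library 2 the closest of its group to the Arid3a-FLAG level. The means were 144.3 ± 12.7 CPM with Arid3a-FLAG and 81.8 ± 14.8 CPM with LUC, which on the log2 scale is a change of 0.82 (SE 0.13, 95% interval 0.54 to 1.10; edgeR adjusted p = 0.0051). The call held whichever library was omitted, with adjusted p of at most 0.042.

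Gp1bb cannot be counted apart from its neighbour with certainty. Of its 2087 exon bases, 1938 also lie in exons of other genes in GENCODE M21, 1902 of them in exons of Sept5 (ENSMUSG00000072214, chromosome 16, 18620502 to 18629954), which runs on the same strand. Sept5 encodes a septin, a filament-forming protein found in platelets, and in humans transcripts that read through both genes are known. Sept5 was at 64.4, 62.2 and 66.9 CPM in the Arid3a-FLAG libraries, against 33.2, 39.0 and 33.0 CPM in the LUC libraries, and rose by 0.88 on the log2 scale (SE 0.10, edgeR adjusted p = 0.00088). With the reads of both genes added together, which was tried only once the values were known, the locus rose by 0.84 (SE 0.12, edgeR adjusted p = 0.0026). The rise of this sum thus does not turn on how counted reads were divided between Gp1bb and Sept5. Reads counted for neither gene, and those of Gm49601, which also shares exon bases with Gp1bb, are not in the sum. How reads in shared exons were assigned is not given, so other ways of assigning them were not tested. The share that belongs to Gp1bb is uncertain.

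**Figure D2:**
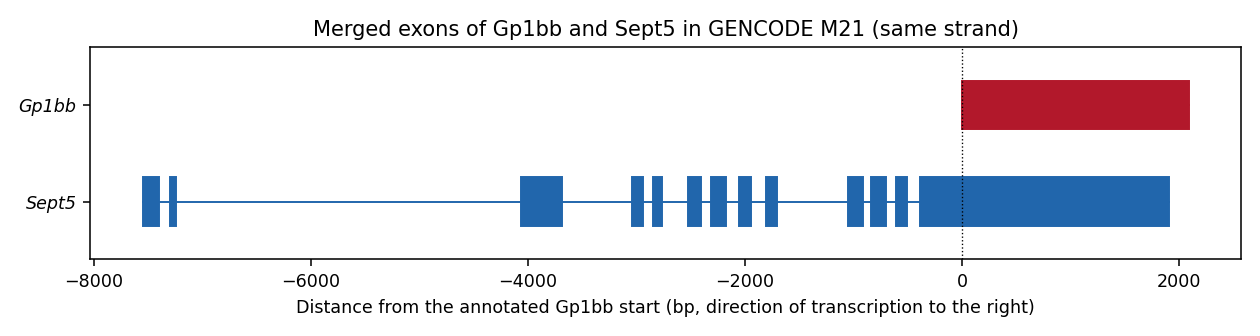
Merged exons (boxes) of Gp1bb and Sept5 along the distance in bp from the annotated Gp1bb start (horizontal axis), both transcribed to the right. The last Sept5 exon starts 393 bp before the Gp1bb start and reaches 1901 bp past it, over most of the single merged Gp1bb exon.

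Gp9 (ENSMUSG00000030054, chromosome 6, 87778072 to 87779768, plus strand) was at 97.7, 86.3 and 87.4 CPM in the Arid3a-FLAG libraries, against 49.1, 68.7 and 51.0 CPM in the LUC libraries. LUC library 2 again lay above the other LUC libraries but below all Arid3a-FLAG libraries. The means were 90.5 ± 6.25 CPM with Arid3a-FLAG and 56.2 ± 10.8 CPM with LUC, or 0.69 as a log2 fold change (SE 0.13, 95% interval 0.40 to 0.97; edgeR adjusted p = 0.013). The call was lost when Arid3a-FLAG library 1, the highest, was left out (log2 fold change 0.63, edgeR adjusted p = 0.080), and held in the other 5 such fits. Without LUC library 2 the log2 fold change was 0.87. No other gene's exons overlap those of Gp9, Gp1ba, Gp5 or Vwf in the annotation.

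Gp5 (ENSMUSG00000047953, chromosome 16, 30307685 to 30310779, minus strand) had the most counts of the 5 genes, between 1861 and 3185 per library. It was at 197.4, 184.9 and 181.1 CPM in the Arid3a-FLAG libraries, against 107.5, 134.0 and 123.7 CPM in the LUC libraries. The groups did not overlap, and Arid3a-FLAG library 1 was the highest of all 6, as it was for Gp1bb and Gp9. The means were 187.8 ± 8.55 CPM with Arid3a-FLAG and 121.7 ± 13.3 CPM with LUC, or 0.63 as a log2 fold change (SE 0.10, 95% interval 0.40 to 0.85; edgeR adjusted p = 0.0054). Its call, too, held whichever library was omitted, with adjusted p of at most 0.049.

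Vwf (ENSMUSG00000001930, chromosome 6, 125546774 to 125686679, plus strand) was at 11.4, 12.3 and 10.3 CPM in the Arid3a-FLAG libraries, against 14.73, 11.51 and 12.47 CPM in the LUC libraries. The groups overlapped, and LUC library 1 held the highest value. The means were 11.3 ± 1.01 CPM with Arid3a-FLAG and 12.9 ± 1.66 CPM with LUC, or -0.19 as a log2 fold change (SE 0.15, 95% interval -0.51 to 0.14; edgeR adjusted p = 0.457). The interval does not reach the log2 fold changes fitted for the 4 subunits, but it overlaps the interval of Gp1ba (0.08 to 0.62). Vwf rested on 164 to 255 counts per library and did not pass in any fit with 1 library left out (adjusted p from 0.262 to 0.856). Among 8 endothelial markers, from the other cell type that makes von Willebrand factor, Cdh5 and Cldn5 had 0 counts in all 6 libraries and Emcn stayed at or below 0.270 CPM. Pecam1 and Tie1, which blood progenitors and megakaryocytes also express, made up most of the summed level of 153.1 to 178.1 CPM with Arid3a-FLAG and 165.5 to 195.2 CPM with LUC.

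**Figure D3:**
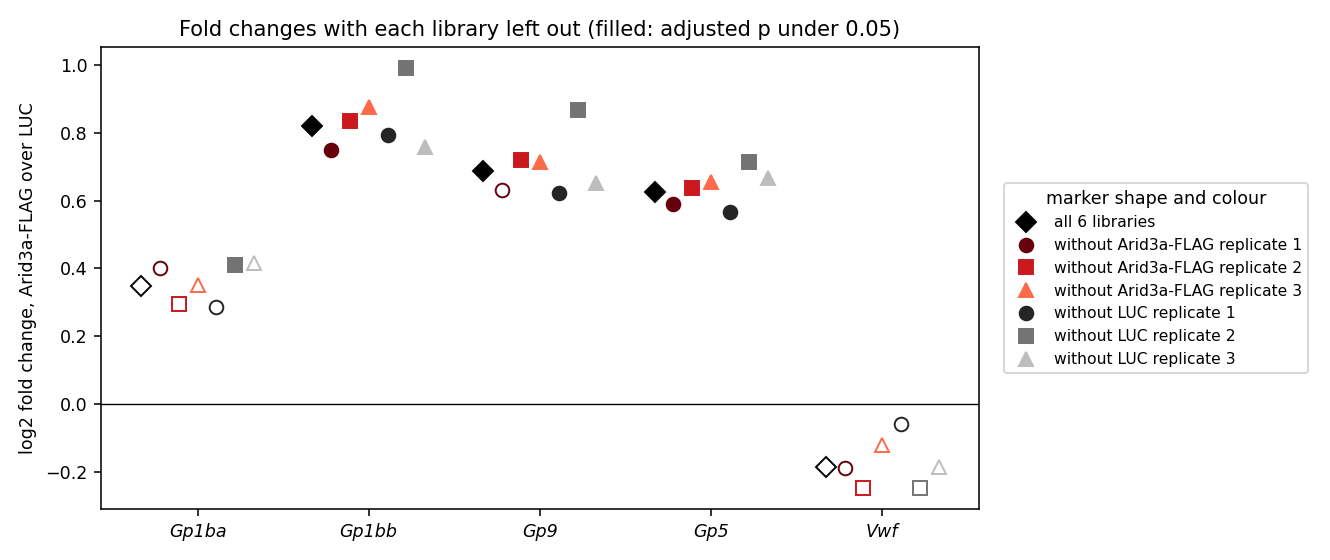
Log2 fold change of Arid3a-FLAG over LUC (vertical axis) for each gene with all 6 libraries and with each library left out; filled symbols have an edgeR adjusted p under 0.05. Gp1bb and Gp5 are filled throughout, Gp9 is open without Arid3a-FLAG replicate 1, Gp1ba is filled only without LUC replicate 2, and Vwf is open throughout.

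Within the LUC group, library 2 had the highest CPM for each of the 4 subunits. For Gp1ba the lead was small, at 19.2 CPM against 18.9 CPM in LUC library 3. The share of all tested genes that were highest in this LUC library is not given here. Their summed level was 474.4, 437.4 and 424.4 CPM in the Arid3a-FLAG libraries, against 248.2, 320.6 and 264.5 CPM in the LUC libraries. LUC library 2 is the library that lay apart on the second principal component. Without it the log2 fold changes were larger for all 4 subunits, at 0.41 for Gp1ba, 0.99 for Gp1bb, 0.87 for Gp9 and 0.71 for Gp5. Larger values follow from leaving out the highest LUC value of each gene.

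To compare levels between genes, CPM was divided by the length of the merged exons in kilobases. Gp9 came first at 102.7 ± 7.10 CPM per kilobase with Arid3a-FLAG and 63.8 ± 12.3 with LUC. Gp5 followed at 85.5 ± 3.89 CPM per kilobase with Arid3a-FLAG and 55.4 ± 6.07 with LUC. The SDs of Gp9 and Gp5 overlapped with LUC but not with Arid3a-FLAG. Gp1bb had 69.2 ± 6.09 CPM per kilobase with Arid3a-FLAG and 39.2 ± 7.11 with LUC, but its place in the order is not fixed. Over the 149 exon bases that it shares with no other gene, the same reads would give 968.7 CPM per kilobase with Arid3a-FLAG and 549.3 with LUC.

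Gp1ba stood far below the other subunits, at 8.40 ± 0.613 CPM per kilobase with Arid3a-FLAG and 6.60 ± 0.692 with LUC. The level of Gp9 was 12.2 times that of Gp1ba with Arid3a-FLAG and 9.67 times with LUC, and that of Gp5 was 10.2 times with Arid3a-FLAG and 8.39 times with LUC. Vwf was lowest, at 0.706 ± 0.0628 CPM per kilobase with Arid3a-FLAG and 0.803 ± 0.103 with LUC, over 16064 exon bases in 56 merged exons. Averaged over the 6 libraries, the level per kilobase of Gp9 was above that of 95.2% of tested genes, Gp5 above 94.2%, Gp1bb above 91.9%, Gp1ba above 53.8% and Vwf above 13.5%.

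Whether the members changed by different amounts was asked with the ratio of their counts within each library, which does not depend on how libraries are scaled. For Gp1bb over Gp1ba the log2 ratio was 2.90, 2.53 and 2.55 in the Arid3a-FLAG libraries, against 2.26, 2.36 and 1.91 in the LUC libraries. The groups did not overlap, and the means differed by 0.48 (two-sided exact permutation p = 0.1, adjusted p = 0.167 over 10 pairs). For Gp5 over Gp1ba the log2 ratio was 3.22, 2.91 and 2.99 in the Arid3a-FLAG libraries, against 2.77, 2.80 and 2.71 in the LUC libraries, also with no overlap and a difference of 0.28 (exact permutation p = 0.1, adjusted p = 0.167). For Gp9 over Gp1ba the difference was 0.35 with overlapping groups (exact permutation p = 0.2, adjusted p = 0.222). With 3 libraries against 3 the smallest p this test can give is 0.1, so no pair could pass the threshold.

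The ratios among the 3 subunits that rose overlapped between the groups. Gp1bb over Gp9 differed by 0.13 between groups, Gp1bb over Gp5 by 0.20 and Gp9 over Gp5 by 0.07 on the log2 scale (exact permutation p from 0.2 to 0.6). Each of the 4 subunits over Vwf had higher log2 ratios in all Arid3a-FLAG libraries than in any LUC library. The differences were 1.01 for Gp1bb, 0.88 for Gp9, 0.81 for Gp5 and 0.53 for Gp1ba (exact permutation p = 0.1 each, adjusted p = 0.167). In all, 6 of the 10 pairs had groups that did not overlap. Each of the 6 has Vwf or Gp1ba as its lower gene, so they are not separate results. The share of such ratios among other gene pairs is not given here. Of single tested genes, 16.6% had all Arid3a-FLAG libraries above all LUC libraries and 16.5% had them all below.

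**Figure D4:**
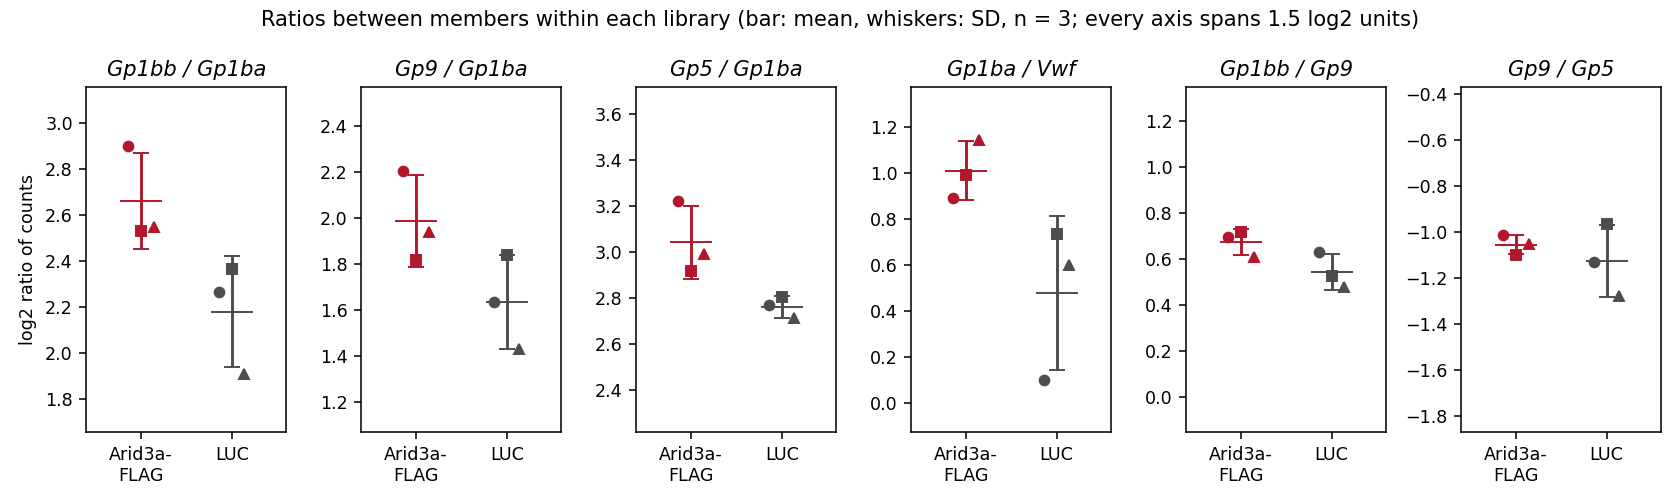
Log2 ratio of counts between 2 members in each library (vertical axes, each spanning 1.5 log2 units), with Arid3a-FLAG in red and LUC in grey, means as bars and SDs as whiskers (n = 3). Arid3a-FLAG libraries lie above LUC libraries for Gp1bb over Gp1ba, Gp5 over Gp1ba and Gp1ba over Vwf, and the groups overlap for the other 3 ratios shown.

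The genes whose pattern over the 6 libraries came closest were found by the root mean square difference of log2 CPM, each gene centred on its own mean, among 9639 named genes of at least 5 CPM. Gp1bb had Gp9 as its nearest gene (0.086) and Anxa3 next (0.088). Gp9 had Ryk (0.051) and Hexim1 (0.071), and Gp5 had Galnt4 (0.052) and Mbnl3 (0.068). Nearest to Gp1ba were Bend3 (0.041) and Ppp1r10 (0.043), and nearest to Vwf were Sirt6 (0.031) and Rmnd1 (0.037). A shared difference between the groups counts as likeness here, since the measure runs over both groups. The exons of Anxa3, Ppp1r10, Galnt4 and Rmnd1 overlap those of other annotated genes, so their patterns are uncertain.

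Outside the cell, GPIb has further ligands and partners. Of 12 genes listed under this heading, 7 were tested, with a median log2 fold change of 0.59. Among these, 2 rose, against 3.43% of all tested genes, and 5 did not pass. The list also takes in Clec1b, a platelet receptor with a ligand of its own. Thbs1, which encodes thrombospondin-1, a platelet glycoprotein that can bind GPIb, was at 281.7 ± 23.9 CPM with Arid3a-FLAG and 46.9 ± 24.4 CPM with LUC (log2 fold change 2.58, edgeR adjusted p = 0.00067). Clec1b, the platelet podoplanin receptor CLEC-2, was at 49.0 ± 2.93 CPM with Arid3a-FLAG and 27.9 ± 7.11 CPM with LUC (0.81, edgeR adjusted p = 0.014). Clec1b missed the threshold without Arid3a-FLAG library 1 (adjusted p = 0.054), Arid3a-FLAG library 2 (0.064) or LUC library 1 (0.0501), and the list had 3 rises without LUC library 2 or LUC library 3. The exons of Clec1b overlap those of Clec9a on the same strand and those of Thbs1 a predicted gene on the other strand, so their values are uncertain. The adhesion receptor Selp (0.60, edgeR adjusted p = 0.106) and the collagen receptor Gp6 (0.56, edgeR adjusted p = 0.110) had folds of like size to Gp9 and Gp5 and did not pass with all libraries. Selp passed without LUC library 3 (adjusted p = 0.024) and Gp6 without LUC library 2 (0.031). Omitting LUC library 2 also raised the calls over all genes, from 467 to 1191 higher.

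Genes that process, release or clear von Willebrand factor gave 1 call among 18 tested. That is near the share of all tested genes, of which 7.29% changed in either direction. Of 26 listed, 18 were tested, with a median log2 fold change of -0.08; 1 fell and edgeR called 0 higher (2 at an unadjusted p under 0.05, with 1 called by DESeq2 and 0 by limma-voom). The gene that fell was Stx3, a syntaxin of granule release, at 8.15 ± 0.297 CPM with Arid3a-FLAG and 12.2 ± 1.70 CPM with LUC (-0.58, edgeR adjusted p = 0.045). That call held without LUC library 2 and was lost whichever other library was omitted (adjusted p from 0.066 to 0.181). Without LUC library 3, 2 genes of the list were called higher, 1 of them Stxbp5 (adjusted p = 0.048). Stxbp5 (0.24, edgeR adjusted p = 0.136) and Rab27b (0.18, edgeR adjusted p = 0.248), both regulators of granule release, did not pass with all libraries.

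The cytoplasmic tail of GPIb-alpha is held by filamin to the actin skeleton and passes signals to kinases of the SRC family. Of 36 listed anchor and signalling genes 35 were tested and 5 rose, against 3.43% of all tested genes. The list had a median log2 fold change of 0.18. Flna, the filamin that binds GPIb-alpha, was at 681.9 ± 33.2 CPM with Arid3a-FLAG and 461.8 ± 29.4 CPM with LUC (0.56, edgeR adjusted p = 0.0087). Src was at 131.0 ± 5.16 CPM with Arid3a-FLAG and 81.8 ± 17.0 CPM with LUC (0.68, edgeR adjusted p = 0.014). Prkg1, the cGMP-dependent kinase that acts in platelets, was at 97.5 ± 7.87 CPM with Arid3a-FLAG and 53.5 ± 2.06 CPM with LUC (0.87, edgeR adjusted p = 0.00067). Actn1, an actin cross-linker, rose by 0.41 and Tln1, the integrin activator talin, by 0.45. Tln1 was named after its values were seen. Flna missed the threshold without Arid3a-FLAG library 1 (adjusted p = 0.071), and Src without the same library (0.079), without Arid3a-FLAG library 2 (0.065) or without LUC library 1 (0.064). Actn1 and Tln1 passed only without LUC library 2 or LUC library 3. The list had 1, 2 and 3 rises when Arid3a-FLAG libraries 1, 2 and 3 were omitted in turn. It had 2, 18 and 9 rises when LUC libraries 1, 2 and 3 were omitted in turn. Over all genes 467 were called higher with all libraries, 115 without Arid3a-FLAG library 1 and 1191 without LUC library 2.

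Of 18 listed genes of receptor shedding and glycosylation 17 were tested, with a median log2 fold change of 0.14. Among these, 2 rose and 1 fell, against 3.43% and 3.87% of all tested genes, and 14 did not pass. C1galt1, which builds the core of the O-linked sugars that GPIb-alpha carries in abundance, was at 335.0 ± 30.4 CPM with Arid3a-FLAG and 216.3 ± 11.2 CPM with LUC (0.63, edgeR adjusted p = 0.0050). Timp3, an inhibitor of the sheddase ADAM17, was at 10.8 ± 2.36 CPM with Arid3a-FLAG and 5.26 ± 1.21 CPM with LUC (1.04, edgeR adjusted p = 0.021), and its exons overlap those of Syn3 on the other strand. The sialyltransferase St6gal1, with exons that overlap those of BC106179 on the other strand, was at 6.31 ± 2.10 CPM with Arid3a-FLAG and 12.9 ± 2.49 CPM with LUC (-1.04, edgeR adjusted p = 0.026). Galnt1, which starts O-linked sugars, did not pass (0.35, edgeR adjusted p = 0.055). Timp3 lost its call without Arid3a-FLAG library 2 (adjusted p = 0.0995), Arid3a-FLAG library 3 (0.060) or LUC library 1 (0.073), each of which left 1 rise in the list. St6gal1 kept its call only without Arid3a-FLAG library 3 or LUC library 2. Galnt1 passed without LUC library 2 (adjusted p = 0.011) or LUC library 3 (0.028), with which the list had 5 and 6 rises. Without LUC library 2 the calls over all genes grew as well, from 467 to 1191 higher.

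Among 26 tested transcription factors of megakaryocytes, of 28 listed, 2 rose and 1 fell, against 3.43% and 3.87% of all tested genes. The other 23 did not pass, and the median log2 fold change of the list was 0.18. There were 8 rises without LUC library 2; with LUC library 1 or any of the Arid3a-FLAG libraries omitted, Mef2c alone rose and Tal1 did not pass (adjusted p from 0.114 to 0.179). Mef2c, a factor of muscle and blood cells (0.63, edgeR adjusted p = 0.0058), and Tal1, a partner of GATA1 in blood formation (0.38, edgeR adjusted p = 0.044), rose and the ETS factor Erg fell (-1.11, edgeR adjusted p = 0.00088). The factors best known at the subunit promoters did not pass: Gata1 was at 325.8 ± 6.13 CPM with Arid3a-FLAG and 285.6 ± 29.0 CPM with LUC (0.19, edgeR adjusted p = 0.249), Fli1 at 139.3 ± 7.40 CPM with Arid3a-FLAG and 120.6 ± 4.10 CPM with LUC (0.21, edgeR adjusted p = 0.156), and Runx1 at 351.2 ± 4.56 CPM with Arid3a-FLAG and 283.6 ± 36.3 CPM with LUC (0.31, edgeR adjusted p = 0.105). The homeobox factor Meis1 also did not pass (0.33, edgeR adjusted p = 0.054). Without LUC library 2 all 4 passed, with adjusted p of 0.0086 for Gata1, 0.037 for Fli1, 0.031 for Runx1 and 0.013 for Meis1. Calls over all genes also grew with that omission, from 467 to 1191 higher and from 527 to 1095 lower. Exons of Runx1 and Meis1, and of Actn1, Tln1 and Selp above, overlap those of other annotated genes, which leaves their values uncertain.

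**Figure D5:**
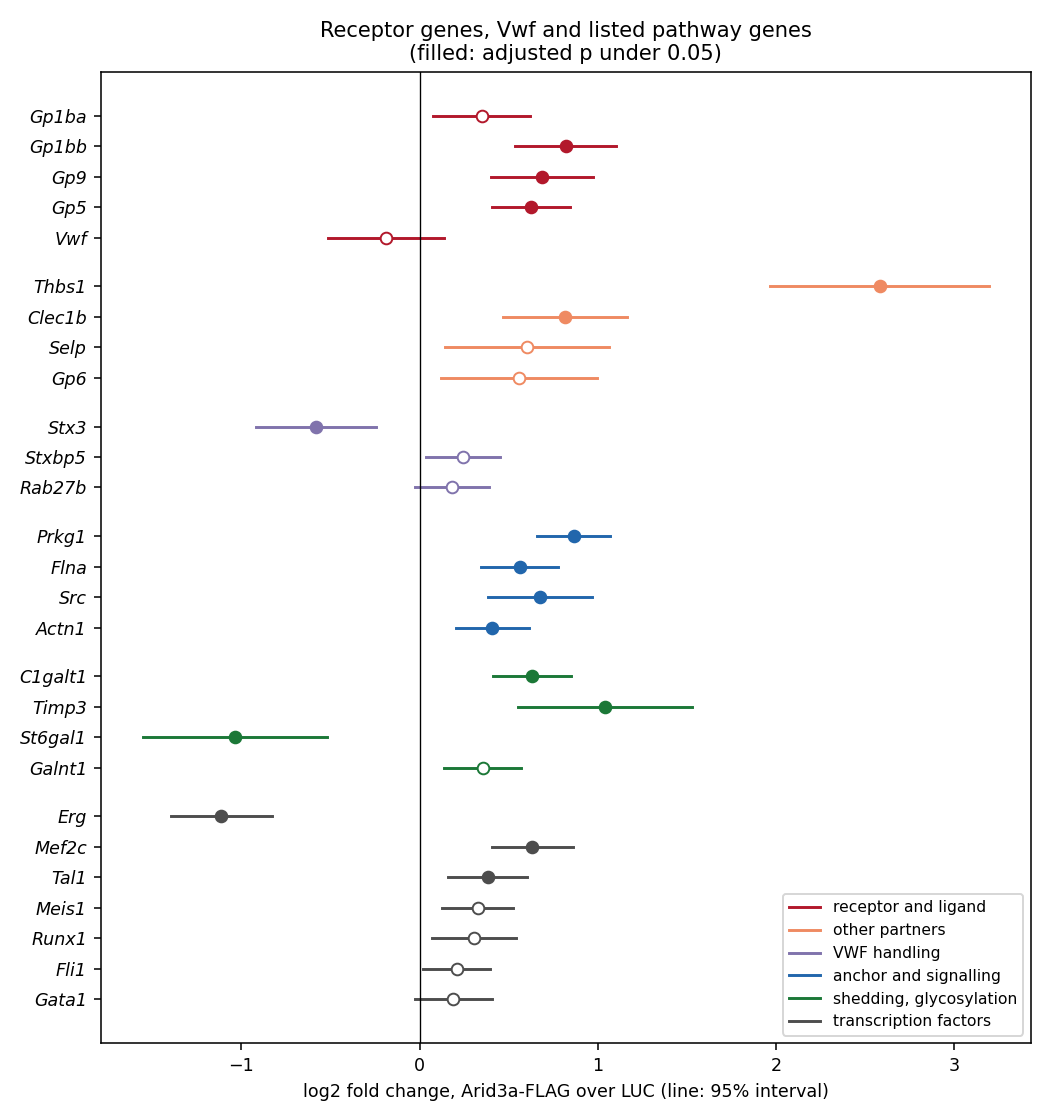
Log2 fold change of Arid3a-FLAG over LUC (horizontal axis) with its 95% interval for the 5 genes and the named genes of the related lists, coloured by list; filled points have an edgeR adjusted p under 0.05. Intervals of Gp1bb, Gp9 and Gp5 lie above 0 and are filled, that of Gp1ba lies above 0 and is open, and that of Vwf spans 0.

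Against other megakaryocyte and platelet genes, the subunits were not alone. Of 48 listed genes 45 were tested, with a median log2 fold change of 0.28. Among these, 9 rose and 3 fell, against 3.43% and 3.87% of all tested genes, and 33 did not pass. Thbs1 and Clec1b, already counted with the partners of GPIb, are among the 9. Omitting LUC library 2 gave 16 rises, and omitting Arid3a-FLAG library 1 or 2 gave 5. The same omissions gave 1191, 115 and 131 higher genes over all genes, against 467 with all libraries. For the listed genes the falls varied too. There was 1 fall when either of LUC libraries 1 and 3 or of Arid3a-FLAG libraries 1 and 3 was omitted, and there were 2 falls when Arid3a-FLAG library 2 was. Itgb3, the beta chain of the fibrinogen receptor, rose by 0.97 (edgeR adjusted p = 0.0010) and Plek, the signalling protein pleckstrin, by 0.69 (edgeR adjusted p = 0.0044). The chemokine Ppbp fell by 1.01 (edgeR adjusted p = 0.0030). Itga2b, the partner chain of Itgb3, was at 2068 ± 108 CPM with Arid3a-FLAG and 1778 ± 158 CPM with LUC (0.22, edgeR adjusted p = 0.256), and the chemokine Pf4 was at 3143 ± 158 CPM with Arid3a-FLAG and 3938 ± 914 CPM with LUC (-0.33, edgeR adjusted p = 0.231). The exons of Plek overlap those of Cnrip1 on the other strand.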

How the data were processed

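RNA was sequenced from 6 samples, 3 per group. The deposited values are read counts per gene, whole numbers with no normalization. Per the submitters' processing notes, reads went through fastp, HISAT2 2.0.5 and featureCounts on mm10; tool settings, annotation release and strand use were not given in the sources used here. Columns were matched to samples by their descriptions. The table had 53802 entries, 1 of them the construct, kept out of library sizes and tests. Symbols, positions and exon lengths came from GENCODE M21 (GRCm38, also called mm10); 95 identifiers had no match. Promoter sequences are RefSeq's (GRCm38.p6) and were found for 4 of the 5 genes.

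Counts were tested with edgeR 4.0.16 in R 4.3.3 (filterByExpr, TMM, quasi-likelihood F test, group as the only term, two-sided), with p-values adjusted by Benjamini-Hochberg over all 13631 tested genes and a threshold of 0.05. The standard error is the log2 fold change over the square root of F, and intervals are at 95%. The procedure was tested on simulated data. Ratios between genes used a pseudocount of 0.5 counts and an exact permutation test over the 6 libraries. Named genes are the 5 members, genes whose exons overlap theirs, the 4 of smallest p in each list, a few fixed comparators and the 2 nearest patterns per member (at least 5 CPM). The members and the 12 lists were chosen with earlier results of these data known. Alternatives were other scalings and filters, DESeq2 1.42.0, limma-voom 3.58.1, a replicate block and each library left out. An overlapping gene of Gp1bb, Gm49601, was not analysed here. A result of the anchor and signalling list is not reported here.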

Additional observations from a re-analysis of the deposited data

How the results depend on the processing

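Gp1bb and Gp5 kept direction and call under RLE and upper quartile factors, both other filters, DESeq2, limma-voom, the replicate block, a threshold of 0.01, the 20 most abundant genes left out and each library left out; Vwf stayed negative and uncalled under these. With 1 library left out the log2 fold change ran from 0.29 to 0.42 for Gp1ba (called without LUC library 2, adjusted p = 0.038) and from 0.62 to 0.87 for Gp9 (lost without Arid3a-FLAG library 1, adjusted p = 0.080); Gp9, at 0.69 with adjusted p = 0.013, also missed 0.01. Between 2 and 4 members passed. Among all genes, 467 were higher and 527 lower. The counts were 869 and 1076 with no filter and 125 and 137 at 0.01, DESeq2 called 771 higher, and with 1 library left out 115 to 1191 were higher and 118 to 1095 lower. The Gp9 to Gp5 log2 ratio difference of 0.07 ran from -0.0069 (without LUC library 3) to 0.15. Levels per kilobase moved with the length used: Gp1bb had 968.7 with Arid3a-FLAG and 549.3 with LUC over unshared bases, and 91.0 with Arid3a-FLAG and 51.6 with LUC over the median coding transcript, where Vwf had 5.19 with Arid3a-FLAG and 5.91 with LUC. For 56 other named genes, 720 of 835 comparisons kept direction and call, 68 lost and 37 gained a call and 10 changed sign. Those were Arid3a, uncalled (-0.01, to 0.0035 with no filter, 0.016 in limma-voom, 0.019 with the replicate block, 0.0039 without the 20 most abundant genes, and -0.19 to 0.17 with 1 library left out), and Apoe, uncalled (-0.17 to 0.10 with 1 library left out). The cause of these changes was not tested. Pairing by replicate number was not seen: deviations of same-numbered libraries correlated at -0.10, -0.11 and 0.12. Those of differently numbered libraries ran from -0.18 to 0.21. With 3 libraries per group this cannot exclude pairing, which the labels do not settle. With the replicate block, the log2 fold changes were 0.35 for Gp1ba, 0.83 for Gp1bb, 0.70 for Gp9, 0.63 for Gp5 and -0.18 for Vwf, and no member's call changed. Depth limits Vwf and Gp1ba most, at 164 to 255 and 273 to 422 counts per library.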

Other observations

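Markers of other cell types, from lists also drawn up with earlier results known, moved beside the receptor genes, and their part in the receptor results was not tested. Of 14 tested mast cell and basophil markers 5 fell, against 3.87% of all tested genes. For the same markers edgeR called 0 higher (0 at an unadjusted p under 0.05, 0 by DESeq2 and 0 by limma-voom). Their median log2 fold change was -0.71. Omitting Arid3a-FLAG library 1 left 3 falls, and omitting Arid3a-FLAG library 3 gave 9. Fcer1a, the IgE-binding chain of the mast cell IgE receptor, fell by 1.24 and the basophil protease Mcpt8 by 2.43. Of 19 tested erythroid markers 6 rose and 2 fell, against 3.43% and 3.87% of all tested genes, and 11 did not pass. Omitting LUC library 2 gave 10 rises and 3 falls, and there was 1 fall when LUC library 1 or any of the Arid3a-FLAG libraries was omitted. Calls over all genes grew without LUC library 2, from 467 to 1191 higher and from 527 to 1095 lower.

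Of 7 tested macrophage and monocyte markers 1 rose and 1 fell, against 3.43% and 3.87% of all tested genes, and 5 did not pass. The fall, of Irf8, was lost when LUC library 1 or 3 or Arid3a-FLAG library 1 or 2 was omitted, and 2 fell when Arid3a-FLAG library 3 was. The 4 defining markers summed to 24.3 to 31.8 CPM with Arid3a-FLAG and 15.9 to 19.1 CPM with LUC. Only Csf1r among them passed, at a mean of 7.89 CPM with Arid3a-FLAG and 2.62 CPM with LUC. Lyz2, Cd68 and Adgre1 did not pass, and Adgre1 had a log2 fold change of -0.06. Of 11 tested endothelial markers 2 rose and 1 fell, against 3.43% and 3.87% of all tested genes, and 8 did not pass. The rises were of Kdr and of Tal1, which is already counted with the transcription factors. There was 1 rise when LUC library 1 or any of the Arid3a-FLAG libraries was omitted; the fall, of Egfl7, was lost when LUC library 3 or any of the Arid3a-FLAG libraries was. Cd34, which did not pass with all libraries, fell when Arid3a-FLAG library 3 or LUC library 2 was omitted. Kdr rose by 2.32 to a mean of 1.78 CPM with Arid3a-FLAG, against 0.345 CPM with LUC. Of 3 tested hepatocyte markers edgeR called 0 (1 lower at an unadjusted p under 0.05, 0 by DESeq2 and 0 by limma-voom), and the 4 defining ones summed to 15.7 to 19.7 CPM with Arid3a-FLAG and 18.9 to 26.3 CPM with LUC, with Ttr at 0 counts. Afp made up nearly all of that sum, since Alb had at most 2 counts and Apoa1 at most 4 in any library.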
